A study of Mus musculus with 48 samples.

Results

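The SAPAP family comprises the scaffold proteins encoded in the mouse by Dlgap1, Dlgap2, Dlgap3 and Dlgap4, and these 4 gene symbols were taken from the 24060 rows of the deposited read-count table. The RNA came from adult mice of strain C57 whose striatal astrocytes had received a RiboTag virus, which makes infected astrocytes carry a haemagglutinin-tagged ribosomal protein (Rpl22-HA), 3 weeks before RNA extraction. Each replicate gave an IP library, of RNA pulled down with the tagged ribosomes, and an input library, of the whole cleared lysate. The 48 libraries form 12 groups of 4 replicates in 3 experiments.

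The first experiment compared SAPAP3 knockout mice, a model of obsessive-compulsive behaviour that lacks a functional Dlgap3 gene, with wild-type (WT) littermates. The second compared mice given MPTP, a toxin that kills dopaminergic neurons, at 20 mg/kg in 4 doses, with mice given vehicle, both described in the labels as microinjected into the striatum. The third compared R6/2 mice, a Huntington's disease model that carries a fragment of mutant human huntingtin, whose astrocytes received the designer Gi-coupled receptor hM4Di, with R6/2 mice that received a control cargo, so both arms carry the R6/2 transgene. The labels do not name the promoter of the RiboTag virus, the agonist given for hM4Di, the control cargo or the part of Dlgap3 that was deleted. The titles of each experiment carry a prefix of their own, so the experiments and whatever that prefix stands for cannot be told apart. Nothing but the titles says that replicates were separate animals, the title of WT replicate 3 may join 2 mice, and the titles of MPTP replicate 2 name different animals for its IP and input, so p-values measure the spread between these libraries.

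SAPAP proteins, also called GKAP proteins, sit in the postsynaptic density of excitatory synapses. They bind the guanylate kinase domain of MAGUK proteins such as PSD-95 (Dlg4) on one side and the PDZ domain of Shank proteins on the other, and Shank in turn holds Homer and metabotropic glutamate receptors. SAPAP3 is the member known for its abundance in the striatum, and its mRNA has been found in neuronal dendrites. Mice without it groom to excess.

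The coding ends of the 4 genes show how alike and how distinct the members are. The last 39 coding bases before the stop codon, which encode the C-terminal tail that Shank PDZ domains bind, are given 5′ to 3′ from GENCODE M21 on GRCm38 (mm10). Each gene lies on the plus strand, and capitals mark the bases identical in all 4 genes.
Dlgap1 chr17:70818193-70818231: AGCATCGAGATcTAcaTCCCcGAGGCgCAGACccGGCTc
Dlgap2 chr8:14846667-14846705: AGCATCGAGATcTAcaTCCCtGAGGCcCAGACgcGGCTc
Dlgap3 chr4:127236327-127236365: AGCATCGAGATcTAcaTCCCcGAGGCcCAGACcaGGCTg
Dlgap4 chr2:156762862-156762900: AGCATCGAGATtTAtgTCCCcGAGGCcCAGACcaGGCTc
Of these 39 bases, 31 were shared by all 4 genes, and pairs of genes shared 33 to 36. This end was carried by 8 of 11 annotated coding transcripts of Dlgap1, 4 of 4 of Dlgap2, 3 of 3 of Dlgap3 and 6 of 12 of Dlgap4.

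Exact sharing between members was limited to short runs. Over all exons the longest stretch that any 2 members shared exactly was 26 bases, between Dlgap1 and Dlgap3, which held 2 coding runs of that length, 1 in the tail and 1 upstream of it. No run of 50 bases was shared by any pair. The genes lie on separate chromosomes: Dlgap1 (ENSMUSG00000003279) at chr17:69969073-70821413, Dlgap2 (ENSMUSG00000047495) at chr8:14095865-14847680, Dlgap3 (ENSMUSG00000042388) at chr4:127169204-127237022 and Dlgap4 (ENSMUSG00000061689) at chr2:156613705-156764363. Dlgap1 spans 852 kb and Dlgap3 67.8 kb. Of the annotated genes that overlap a member, only 4930405A21Rik, on the opposite strand within Dlgap4, has a row in the count table. Others have none, among them the antisense genes 5031415H12Rik within Dlgap1 and C030037F17Rik within Dlgap2, so their levels are not known here. Whether reads were counted by strand is not given in the sources used here. The transcript 4930405A21Rik had at most 0.824 CPM (counts scaled to library size) in any library.

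Library totals were 34.3 to 61.5 M counts in IP and 21.9 to 38.98 M counts in input. The member with the fewest reads in any library, Dlgap2, still had at least 1597, so counting error was small for all 4 genes. A further gene whose symbol starts alike, Dlgap5, encodes a mitotic spindle protein rather than a synaptic scaffold. It reached at most 76 reads and 0.848 FPKM and is not treated as a member.

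The pull-down held astrocyte RNA in excess, and it held some neuronal transcripts at lower and others at higher levels than the lysate. All 12 astrocyte markers examined were higher in IP than in input in each experiment, with median log2 differences of 2.30 to 2.60. All 13 tested markers of medium spiny neurons, the main neurons of the striatum, were lower in IP, with medians of -0.90 to -0.64, but none was at 0 in any IP library. Markers of striatal interneurons ran the other way: 5 of 6 were called higher in IP in each experiment, with medians of 1.53 (SAPAP3), 2.02 (MPTP) and 2.18 (R6/2) and summed levels of 492 to 1229.6 CPM in IP and 144 to 325 CPM in input. Of 8 pan-neuronal markers, 1 was called higher and 7 lower in the SAPAP3 experiment, 5 higher and 3 lower in the MPTP experiment, and 3 higher and 2 lower in the R6/2 experiment. Of all genes tested, 39.3% to 40.7% were called higher and 40% to 42.9% lower in IP in the 3 experiments. Values for the family in IP therefore come from libraries that also held neuronal transcripts, whose part in them was not tested.

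One pair of libraries stood apart from its group. The summed level of 4 markers of cortical excitatory neurons (Slc17a7, Neurod6 and Tbr1 among them) was 681 to 841 CPM in the SAPAP3 knockout inputs and 562 to 707 CPM in 3 of the WT inputs, but 77.2 CPM in the input of WT replicate 1. In IP it was 103 to 316 CPM in the knockout and 119.5 to 216 CPM in the same 3 WT replicates, but 14.8 CPM in WT replicate 1. The summed medium spiny neuron markers were 6403 to 6914 CPM in the knockout inputs and 6634 to 7745 CPM in 3 of the WT inputs, but 11573 CPM in the input of WT replicate 1. The summed pan-neuronal markers were 6294 to 7111 CPM in the knockout inputs and 6225 to 6521 CPM in 3 of the WT inputs. They were 4089 CPM in the input of WT replicate 1. In IP their sum was 4054 CPM in WT replicate 1 and 3856 to 4136 CPM in the other WT libraries. The inputs of the MPTP and R6/2 experiments held 18.6 to 85.8 CPM of the cortical markers and 3986 to 4764 CPM of the pan-neuronal markers. Several results of the SAPAP3 experiment are also given without WT replicate 1. Single values not marked as leaving replicates out include it. In bulk RNA, fewer cells of a type and less RNA per cell cannot be told apart.

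By FPKM, Dlgap3 was the most abundant member of the family in all libraries of the 10 groups with an intact Dlgap3 gene. Levels between genes are given as FPKM, the count scaled to gene length and library total. In input, Dlgap3 averaged 123 ± 4.61 FPKM in MPTP mice and 132 ± 12.5 FPKM in vehicle mice (SD, n = 4 here and for each group below). It averaged 84.8 ± 5.77 FPKM in R6/2 mice with hM4Di and 81.4 ± 9.48 FPKM in R6/2 mice with control cargo, and 110.3 ± 16.5 FPKM in WT littermates. Without WT replicate 1 the WT average was 102 FPKM. The R6/2 inputs did not overlap with the inputs of the other 3 groups with an intact gene, the highest of them at 95.3 FPKM and the lowest WT input at 98.4 FPKM. That comparison runs across experiments and was not tested.

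In IP, Dlgap3 averaged 50.5 ± 6.98 FPKM in MPTP mice and 49.8 ± 1.81 FPKM in vehicle mice. The averages were 26.5 ± 1.71 FPKM with hM4Di and 34.6 ± 7.82 FPKM with control cargo in R6/2 mice, and 45.9 ± 7.03 FPKM in WT littermates. The vehicle, MPTP and WT groups overlapped. The lead of Dlgap3 in IP depended on the lengths in the FPKM, 3817 bases for Dlgap3 and 7984 bases for Dlgap1. In CPM, without length, mean Dlgap1 was above mean Dlgap3 in WT IP (210 against 174) and vehicle IP (202 against 191). The same held in R6/2 control IP (185 against 134) and hM4Di IP (163 against 100), but not in MPTP IP (182 against 192).

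Dlgap3 supplied a large share of the family's transcripts by this measure. Its mean share of the summed FPKM of all 4 members was 69.1% in MPTP inputs and 69.4% in vehicle inputs, 58.7% in hM4Di inputs and 56.8% in R6/2 control inputs, and 54.9% in WT inputs. In IP the share was lower in each of these groups, between 39.4% with hM4Di and 49.7% with vehicle.

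The other 3 members lay closer together. Dlgap1 averaged 18.4 to 20.0 FPKM over the 4 input groups of the MPTP and R6/2 experiments, but 49.0 ± 2.05 FPKM in SAPAP3 knockout input and 40.3 ± 12.2 FPKM in WT input. Dlgap2 ranged over group means of 8.03 FPKM (IP, hM4Di) to 22.6 FPKM (WT input). Dlgap4 ranged from 12.1 FPKM (IP, hM4Di) to 29.9 FPKM (knockout input). For both genes every input of the SAPAP3 experiment lay above every library of the other 2 experiments, with a single exception, the highest R6/2 control input, at 23.5 FPKM for Dlgap2 and 28.0 FPKM for Dlgap4. These differences between experiments were not tested.

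**Figure D1:**
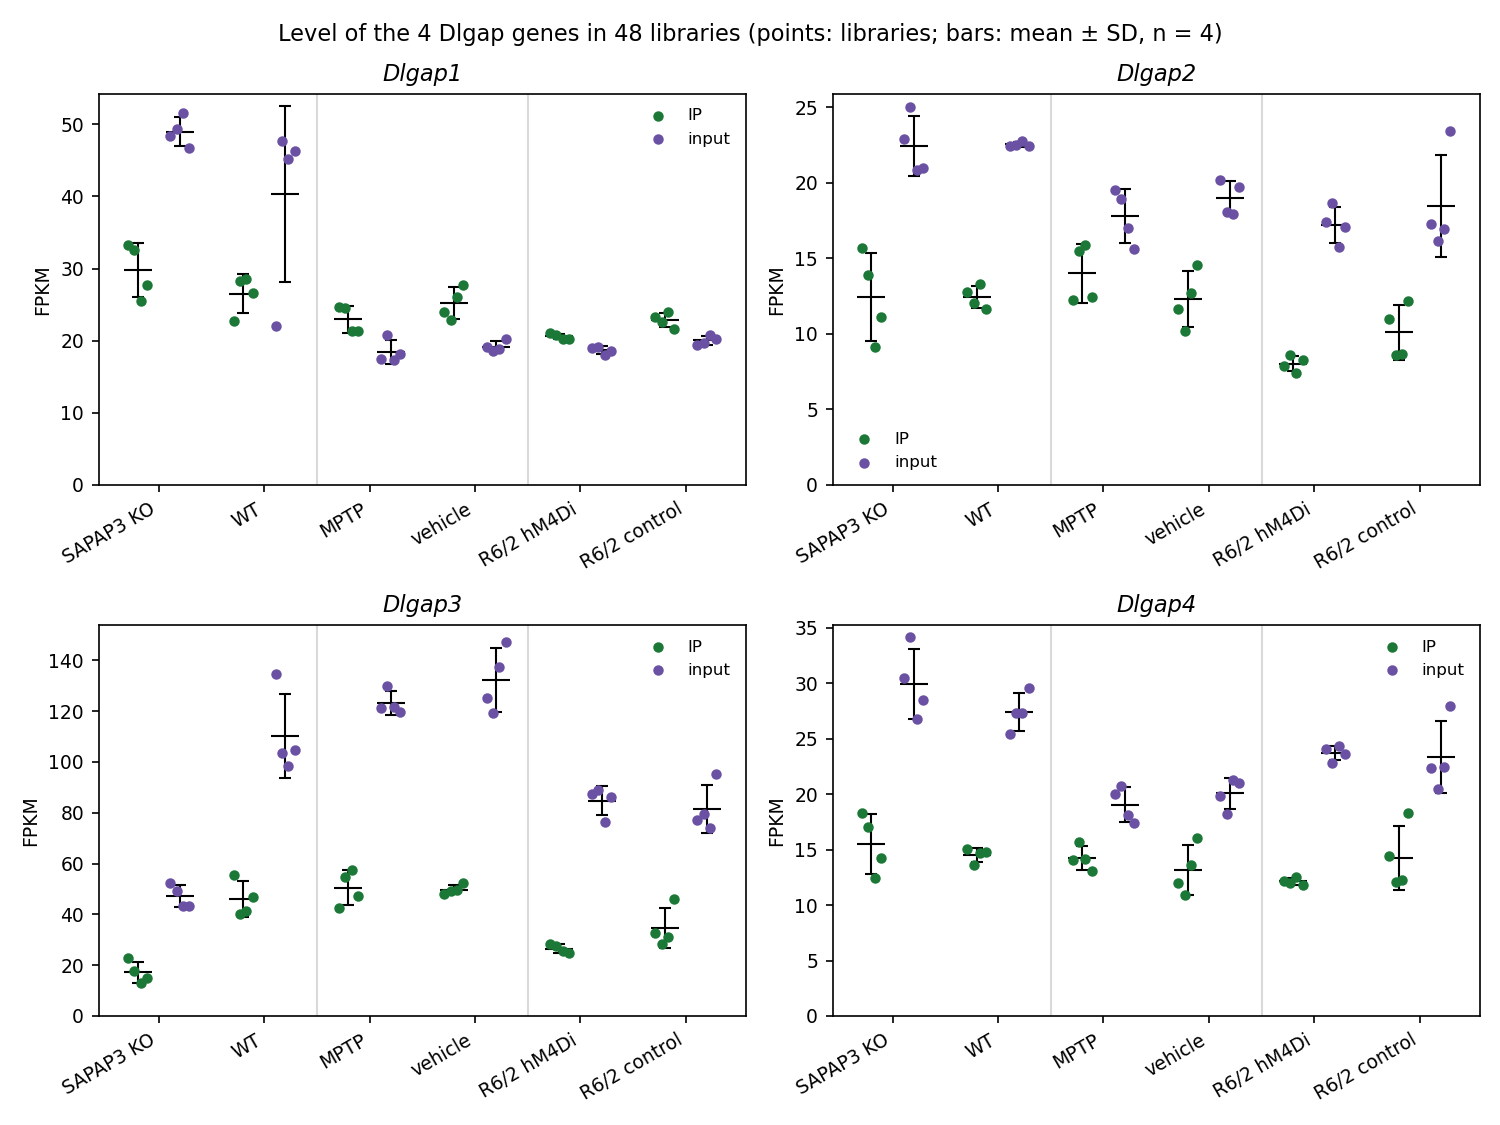
Levels of the 4 SAPAP family genes in the 12 groups, as FPKM on the vertical axis (points, libraries; long horizontal lines, mean of 4; whiskers, SD), 1 panel a gene, with IP left of input. Dlgap3 has the highest mean in each group except SAPAP3 knockout IP (17.2 FPKM, against 29.8 FPKM for Dlgap1) and SAPAP3 knockout input (47.2 FPKM, against 49.0 FPKM for Dlgap1).

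The first question was how far Dlgap3 transcripts fell in the SAPAP3 knockout, which also checks the genotype labels. Comparisons within a gene use TMM-normalized CPM, and a gene was called when its adjusted p from edgeR's quasi-likelihood F test was under 0.05. In IP, Dlgap3 stood at 87.1, 70.0, 50.5 and 56.1 CPM in the knockout libraries, against 209, 152, 156 and 179 CPM in the WT libraries. In input it stood at 204, 189.8, 168 and 167 CPM in the knockout libraries, against 498, 391, 379.7 and 397 CPM in the WT libraries. The groups did not overlap in either fraction, and every knockout library matched its label.

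Dlgap3 fell by 1.40 ± 0.17 on the log2 scale in knockout IP (SE; 95% interval -1.78 to -1.03; edgeR adjusted p = 0.0283) and by 1.19 ± 0.10 in knockout input (interval -1.42 to -0.97; edgeR adjusted p = 0.00698). The remaining level was 37.8% of the WT mean in IP and 43.7% in input. In IP, 4 of the 15198 genes tested were called (0.0263%) and Dlgap3 ranked 4 by p-value. In input Dlgap3 was the 1 gene called of 15591 (0.00641%), so it ranked first there.

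The residual signal was well above counting error, with 2057 to 3636 reads per knockout IP library and 4607 to 6027 reads per knockout input library. Gene-level counts do not show which exons these reads cover, and the deleted stretch is not named in the labels, so the values measure reads assigned to the gene and not intact transcript. Exact sharing with a paralog reached 26 bases at most, and whether reads of a paralog were assigned to Dlgap3 was not tested. The difference between the fractions did not pass: the IP effect minus the input effect was -0.20 ± 0.20 (log2, SE; interval -0.64 to 0.23; edgeR adjusted p = 0.9996). No gene passed that interaction test (0% of 16059; 203 at an unadjusted p under 0.05, and 1 called by DESeq2).

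Without WT replicate 1, whose Dlgap3 was the highest of the WT group in both fractions, the change was -1.30 in IP, where the edgeR adjusted p of 0.109 no longer passed, and -1.10 in input (edgeR adjusted p = 0.00043). The IP call was lost when any 1 of 7 of the 8 replicates was left out (log2 changes -1.46 to -1.29, adjusted p 0.0741 to 0.169), and kept without knockout replicate 1. The input call was lost without knockout replicate 2, 3 or 4 (log2 changes -1.22 to -1.15, adjusted p 0.0531 to 0.0641). Both calls were also lost when the mice with reads of Xist, the transcript of the inactive X chromosome, were left out, which kept 3 replicates a group (-1.55 in IP, edgeR adjusted p = 0.152, and -1.27 in input, edgeR adjusted p = 0.138).

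**Figure D2:**
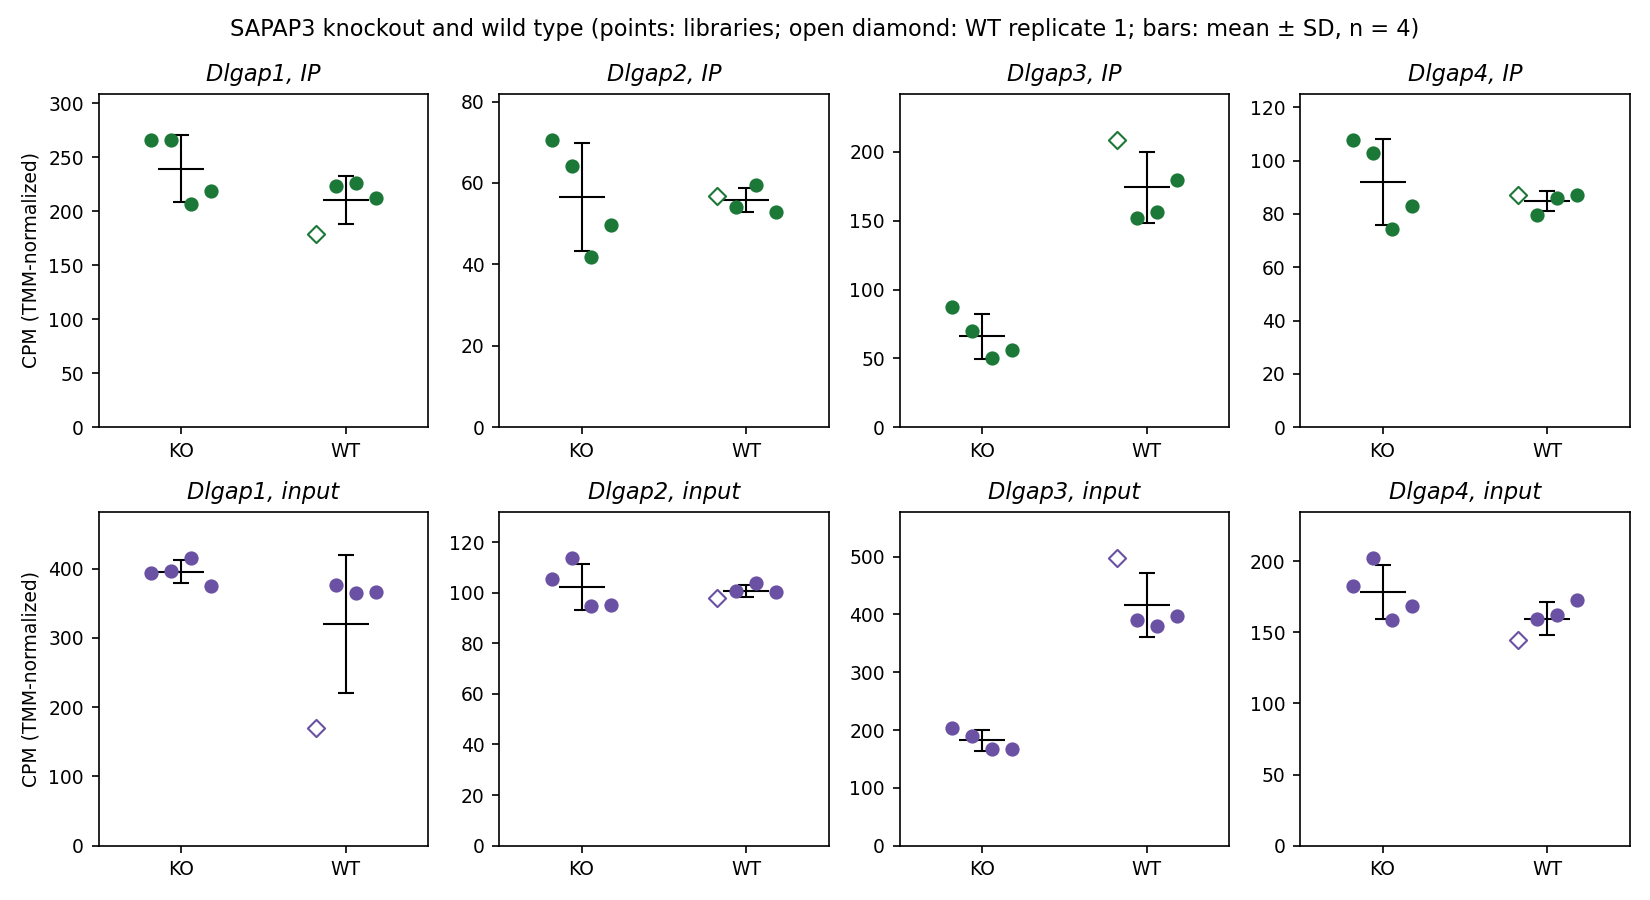
TMM-normalized CPM of each SAPAP family gene in each library of the SAPAP3 experiment, knockout left of wild type in each fraction, with WT replicate 1 as an open diamond. Only Dlgap3 separates the genotypes in both fractions, and Dlgap1 in WT replicate 1 input (171 CPM) lies far below the other WT inputs (365 to 377 CPM).

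The paralogs were then examined for a rise that could offset the lost Dlgap3 transcript. None of the 3 was called in either fraction. Dlgap1, whose product shares the MAGUK and Shank partners of SAPAP3, stood at 266, 267, 207 and 219 CPM in knockout IP, against 179, 224, 227 and 213 CPM in WT IP. The groups overlapped, and the log2 change was 0.19 ± 0.11 (interval -0.05 to 0.43; edgeR adjusted p = 0.999).

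In input, Dlgap1 stood at 394, 397, 415 and 375 CPM in knockout libraries, against 171, 377, 365 and 366 CPM in WT libraries. The low WT value was that of replicate 1. The log2 change of 0.31 ± 0.21 (interval -0.16 to 0.77; edgeR adjusted p = 0.740) became 0.098 without that replicate, and in IP it became 0.12. Dlgap1, the cortical markers and the summed pan-neuronal markers were all low in that input, and the part of those markers in the Dlgap1 value was not tested.

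Dlgap2 did not separate the genotypes. It stood at 70.7, 64.2, 41.7 and 49.6 CPM in knockout IP, against 56.9, 54.0, 59.6 and 52.8 CPM in WT IP. In input the values were 105, 114, 94.7 and 95.2 CPM in knockout libraries, against 98.0, 100.6, 104 and 100.3 CPM in WT libraries. The log2 changes were 0.019 ± 0.14 in IP (interval -0.30 to 0.34; edgeR adjusted p = 0.999) and 0.022 ± 0.065 in input (interval -0.12 to 0.17; edgeR adjusted p = 0.930). Without WT replicate 1 they were 0.028 in IP and 0.0096 in input.

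Dlgap4, the remaining scaffold of the family, stood at 108, 103, 74.2 and 83.0 CPM in knockout IP, against 87.2, 79.4, 85.8 and 86.9 CPM in WT IP. In input it stood at 183, 202, 159 and 169 CPM in knockout libraries, against 145, 159, 162 and 173 CPM in WT libraries. The groups overlapped in both fractions. The log2 changes were 0.12 ± 0.11 in IP (interval -0.13 to 0.37; edgeR adjusted p = 0.999) and 0.16 ± 0.082 in input (interval -0.03 to 0.34; edgeR adjusted p = 0.735). With 1 replicate left out they ranged from 0.030 (without knockout replicate 1) to 0.21 (without knockout replicate 3) in IP and from 0.084 (without knockout replicate 2) to 0.21 (without knockout replicate 3) in input, and none passed.

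Set side by side per length, the paralogs' differences were small beside the Dlgap3 deficit. In IP, knockout minus WT was -28.8 FPKM for Dlgap3, 3.29 FPKM for Dlgap1, -0.0019 FPKM for Dlgap2 and 1.01 FPKM for Dlgap4. The 3 paralogs together averaged 57.8 FPKM in knockout IP and 53.5 FPKM in WT IP. In input, Dlgap3 differed by -63.2 FPKM, and the 3 paralogs together averaged 101 FPKM in knockout mice and 90.2 FPKM in WT mice, a difference of 11.1 FPKM that became 4.37 FPKM without WT replicate 1.

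The summed level of all 4 members was 74.9 ± 13.4 FPKM in knockout IP and 99.4 ± 4.97 FPKM in WT IP. In input it was 149 ± 8.82 FPKM in knockout mice and 201 ± 4.85 FPKM in WT mice. Without WT replicate 1 the WT sums were 97.2 FPKM in IP and 199 FPKM in input. Dlgap3 made up 22.7% of the family in knockout IP and 46.0% in WT IP, and 31.7% in knockout input and 54.9% in WT input. By FPKM, Dlgap1 was the leading member in all 4 knockout IP libraries and in 2 of 4 knockout inputs.

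The genes beside Dlgap3 on chromosome 4 were also examined, and none of the 10 nearest tested genes was called in either fraction. The smallest unadjusted p in IP was that of Sfpq, an RNA-binding splicing factor 148 kb before Dlgap3 by start position (log2 change 0.26 ± 0.073; edgeR adjusted p = 0.999). In input it was that of the zinc finger gene Zmym6 at 91.8 kb (log2 change -0.28 ± 0.072; edgeR adjusted p = 0.735).

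None of the listed binding partners of the family was called in the knockout. A list of 35 postsynaptic genes covered MAGUK, Shank and Homer proteins, dynein light chains, other scaffolds, CaMKII, the ubiquitin ligase Trim3, neuroligins and glutamate receptors, and all 35 were tested. In knockout IP, 0 of 35 were called by edgeR or by DESeq2 (3 at an unadjusted p under 0.05 in edgeR). Log2 changes lay above 0 for 18 genes and below 0 for 17, with a median of 0.0078, against 0.0062 over all genes. The 4 smallest p-values were those of the scaffold Homer2 (0.31 ± 0.11), the dynein light chain Dynll1 (0.16 ± 0.064), Shank2 (0.33 ± 0.14) and the metabotropic receptor Grm5 (-0.30 ± 0.14), each with an edgeR adjusted p of 0.999.

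In knockout input again 0 of 35 were called by either tool (0 at an unadjusted p under 0.05 in edgeR, 3 in DESeq2). The median was 0.046, against -0.0017 over all genes, with 25 genes above 0 and 10 below. The 4 smallest p-values were those of Dynll1 (0.17), Grm5 (-0.21), Shank2 (0.27) and the MAGUK gene Dlg3 (0.12). All 13 medium spiny neuron markers lay below 0 in the knockout in both fractions, with a median of -0.29 in each and 0 called. Without WT replicate 1 these medians were -0.17 in IP and -0.098 in input. All 8 pan-neuronal markers lay above 0 in knockout input, with a median of 0.19 (0.064 without WT replicate 1) and 0 called. The part of these markers in the Dlgap3 result was not tested.

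The second question was how each member divided between astrocyte ribosomes and the whole lysate. Dlgap3 was lower in IP than in input in all 24 pairs of libraries, with IP levels of 0.288 to 0.483 of the paired input level. Dlgap2 and Dlgap4 were also lower in IP in all 24 pairs. Dlgap1 was the exception: its direction differed between experiments. Its group means ran from 20.6 FPKM (hM4Di) to 29.8 FPKM (SAPAP3 knockout) in IP. In input they ran from 18.4 FPKM (MPTP) to 49.0 FPKM (SAPAP3 knockout), so the groups lay farther apart in input than in IP. These levels were not tested between experiments.

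The ratios of paired levels are of FPKM as deposited, whereas the log2 differences are of TMM-scaled counts, and the scales differ in where they place equal levels. On log2(FPKM + 1) the median of all genes was -0.15, -0.16 and -0.18 for IP minus input in the SAPAP3, MPTP and R6/2 experiments, against -0.0006, -0.022 and -0.020 with TMM. Of the genes called, 34.5%, 33.5% and 31.6% were higher in IP on that FPKM scale (limma) and 50.2%, 48.7% and 48.9% with TMM (edgeR). No member changed direction between these scales.

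For Dlgap3 the log2 difference of IP minus input was -1.14 ± 0.10 in the SAPAP3 experiment, -1.12 ± 0.060 in the MPTP experiment and -1.21 ± 0.11 in the R6/2 experiment. Every one passed edgeR's test, with the largest adjusted p at 1.6e-08. Its estimated depletion exceeded 2-fold in each experiment, as it did for 13%, 14% and 12.3% of all genes tested in these 3 experiments. The fold itself was not tested, and the 95% intervals also held smaller folds. They were -1.36 to -0.92 (SAPAP3), -1.25 to -0.996 (MPTP) and -1.44 to -0.987 (R6/2). No other member passed that fold in any experiment.

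Dlgap2 was lower in IP by edgeR in each experiment, with log2 differences of -0.63 ± 0.082 (SAPAP3), -0.26 ± 0.083 (MPTP; adjusted p = 0.0077) and -0.75 ± 0.095 (R6/2). The ratio of IP to input FPKM was 0.438 to 0.685 in the SAPAP3 experiment, 0.563 to 0.935 in the MPTP experiment and 0.452 to 0.635 in the R6/2 experiment. Dlgap4 was lower too, with -0.71 ± 0.072, -0.29 ± 0.073 (edgeR adjusted p = 0.00112) and -0.60 ± 0.090 in the same order of experiments. Its ratios were 0.465 to 0.602, 0.596 to 0.782 and 0.501 to 0.653. Both were least depleted in the MPTP experiment, where log2(FPKM + 1) gave -0.46 for Dlgap2 and -0.49 for Dlgap4. In MPTP mice alone the Dlgap2 value was -0.13 and did not pass (edgeR adjusted p = 0.289). Calls of this kind were common, with 40% of all genes tested called lower in IP in the SAPAP3 experiment, 42.9% in the MPTP experiment and 41.1% in the R6/2 experiment.

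Dlgap1 was higher in IP in every pair of the MPTP experiment, at 1.17 to 1.41 of the paired input (median 1.24), and in every pair of the R6/2 experiment, at 1.07 to 1.20 (median 1.12). The log2 differences were 0.58 ± 0.052 (edgeR adjusted p = 5.9e-09) and 0.40 ± 0.028 (edgeR adjusted p = 4.9e-10). On log2(FPKM + 1), the scale of the ratios, they were smaller, 0.34 and 0.16, and still passed (limma adjusted p = 4.3e-06 and 2.1e-05). In the SAPAP3 experiment Dlgap1 was lower in IP in 7 of 8 pairs, at a median ratio of 0.612, with a log2 difference of -0.44 ± 0.13 (edgeR adjusted p = 0.00396), which did not pass in WT mice alone (-0.43, edgeR adjusted p = 0.101). The pair that did not follow was WT replicate 1, at 22.7 FPKM in IP and 22.1 FPKM in input, a ratio of 1.03. Without that replicate the log2 difference was -0.51 (edgeR adjusted p = 3.1e-07). Genes called higher in IP made up 40.3%, 40.7% and 39.3% of those tested in the SAPAP3, MPTP and R6/2 experiments.

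**Figure D3:**
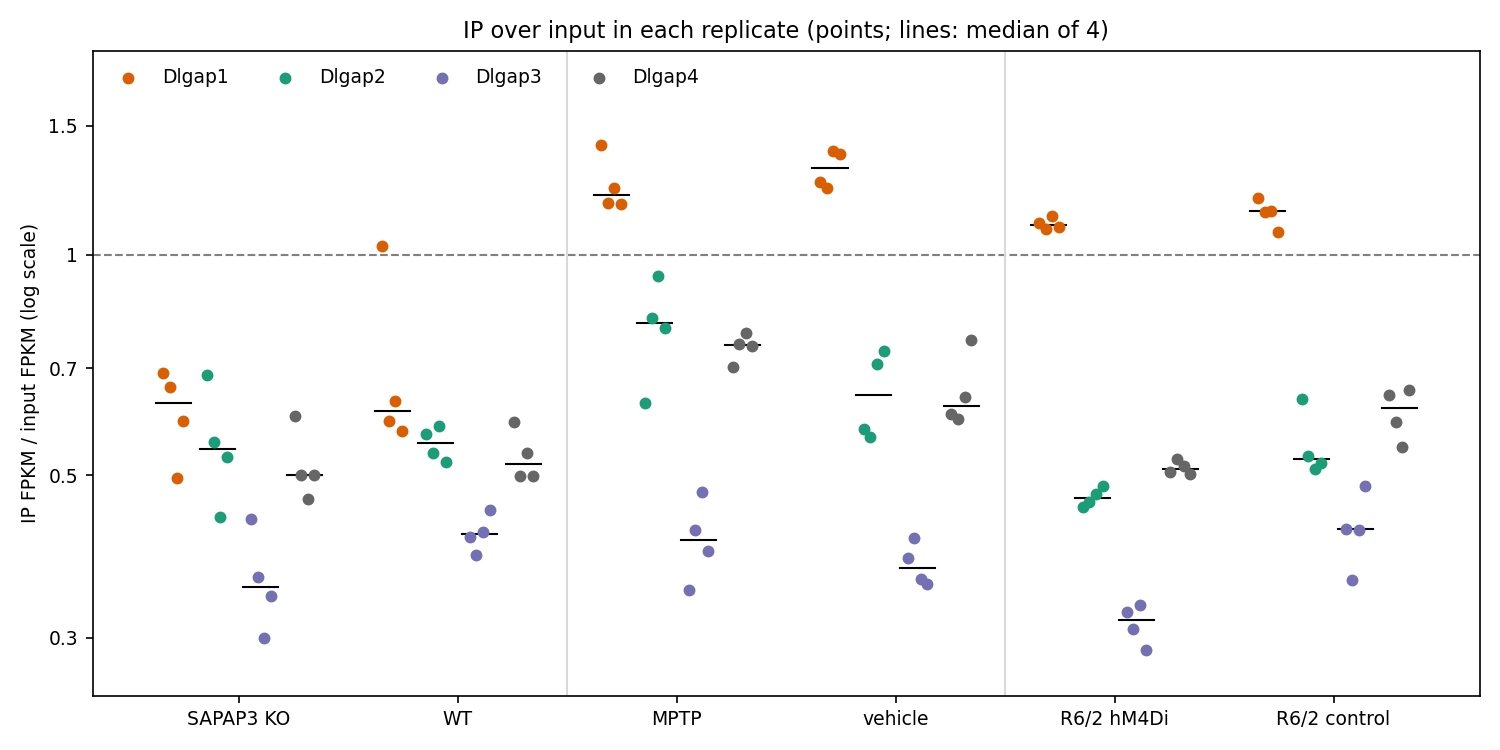
Ratio of IP to input FPKM for each pair of libraries on a log axis, by gene and group (points; short lines, median of 4), with a dashed line at equal levels. Dlgap3 lies between 0.288 and 0.483 in all 3 experiments, whereas Dlgap1 lies above 1 in the MPTP and R6/2 experiments and at 0.496 to 0.689 in the SAPAP3 experiment except in WT replicate 1 (1.03).

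The fraction difference itself was compared between experiments in a single fit of all 48 libraries, chosen after these values were seen. For Dlgap1 the SAPAP3 value minus the MPTP value was -1.08 ± 0.13 (log2; edgeR adjusted p = 2.1e-08) and the SAPAP3 value minus the R6/2 value -0.85 ± 0.13 (edgeR adjusted p = 2.8e-06). Such calls covered 34.3% and 25.8% of all genes tested. Without WT replicate 1 the values were -1.15 and -0.92 and both still passed. Because each experiment is also its own title prefix, what distinguishes the experiments cannot be told apart.

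Dlgap3, by contrast, showed no difference past the threshold between any 2 experiments. Its SAPAP3 minus MPTP value was -0.07 ± 0.13 (interval -0.33 to 0.19; edgeR adjusted p = 0.705), its SAPAP3 minus R6/2 value 0.07 ± 0.13 (interval -0.19 to 0.33) and its R6/2 minus MPTP value -0.14 ± 0.13 (interval -0.40 to 0.12). Dlgap2 was more depleted in the SAPAP3 than in the MPTP experiment (-0.43 ± 0.13, edgeR adjusted p = 0.00795) and in the R6/2 than in the MPTP experiment (-0.54 ± 0.13, edgeR adjusted p = 0.0011). Dlgap4 differed likewise, with -0.48 ± 0.11 (edgeR adjusted p = 0.00117) and -0.36 ± 0.11 (edgeR adjusted p = 0.0143). Of all genes, 32.2% differed between the R6/2 and MPTP experiments. The Dlgap1 value for R6/2 minus MPTP was -0.23 ± 0.13 (edgeR adjusted p = 0.173), and it passed only without WT replicate 1 (-0.22, edgeR adjusted p = 0.0092), a setting in which 33.1% of genes were called.

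By Dlgap1, by the cortical markers and by the summed pan-neuronal markers, the inputs fell into the same high and low sets. The 7 inputs of the SAPAP3 experiment with 562 to 841 CPM of the cortical markers held 45.2 to 51.6 FPKM of Dlgap1. The other 17 inputs, with 18.6 to 85.8 CPM of the markers, held 17.4 to 22.1 FPKM. The 8 pan-neuronal markers summed to 6225 to 7111 CPM in the same 7 inputs and to 3986 to 4764 CPM in the other 17. WT replicate 1 belonged to the second set on each measure. The part of cortical or other neuronal RNA in the Dlgap1 result was not tested, and as the libraries fall into separate sets no correlation is given.

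**Figure D4:**
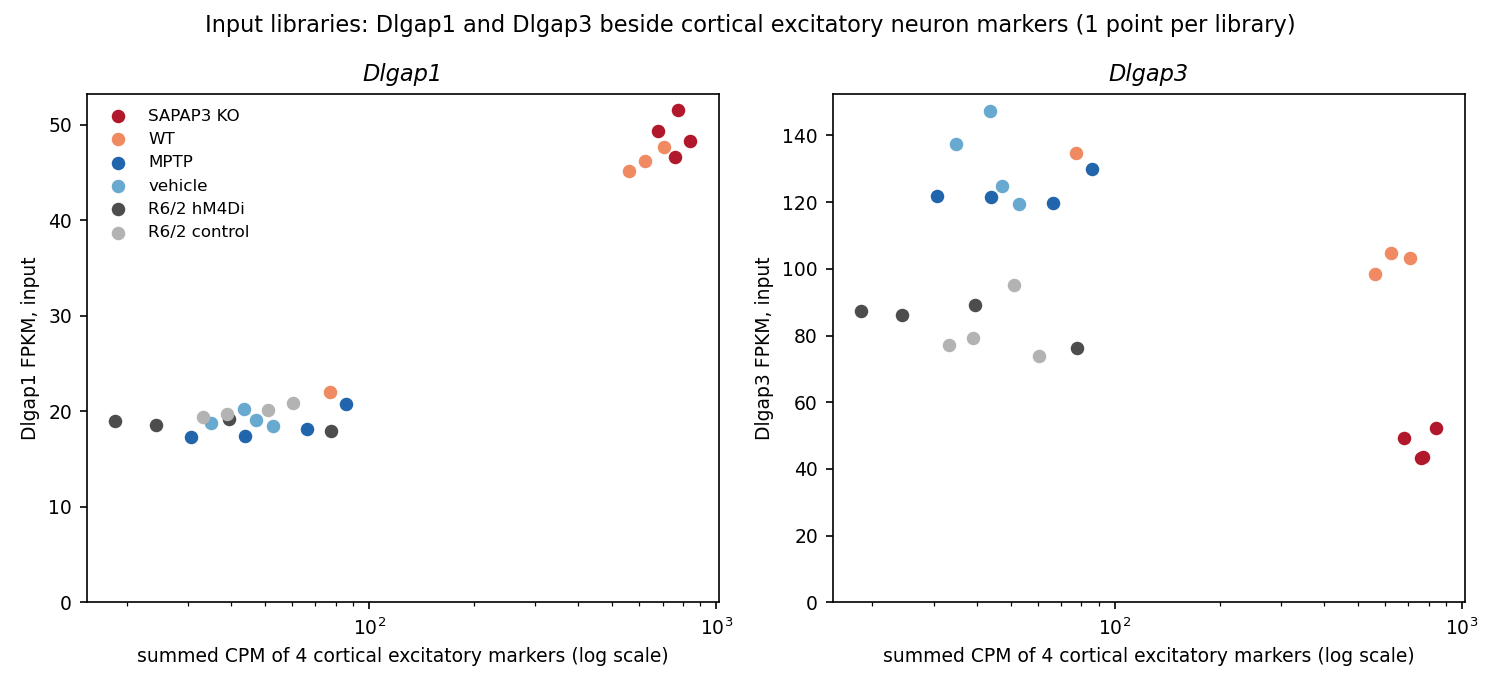
FPKM of Dlgap1 and Dlgap3 in each of the 24 input libraries (vertical axis) against the summed CPM of the 4 cortical excitatory markers (horizontal axis, log scale). Dlgap1 lies at 45.2 to 51.6 FPKM in the 7 libraries rich in these markers and at 22.1 FPKM in WT replicate 1, which has 77.2 CPM of them.

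Most partners of the family were lower in IP as well. Of the 35 listed genes, 30 were called lower and 2 higher in the SAPAP3 experiment, 22 lower and 6 higher in the MPTP experiment and 28 lower and 4 higher in the R6/2 experiment. Of all genes tested, 40%, 42.9% and 41.1% were called lower in the same order, and 40.3%, 40.7% and 39.3% higher. The median log2 differences of the 35 genes were -0.56, -0.23 and -0.39, against medians of -0.0006, -0.022 and -0.020 over all genes. On log2(FPKM + 1) the calls among the 35 were 31 lower and 1 higher, 26 lower and 4 higher, and 30 lower and 2 higher. Dlg4, which encodes PSD-95, came close to Dlgap3 with -1.20, -1.19 and -1.22. The Shank gene Shank3, mutated in a human neurodevelopmental syndrome, had -0.95, -0.69 and -1.08.

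Calls lower in IP in each of the 3 experiments spanned the roles on the list. Among the scaffolds they included Dlg1, Dlg2, Dlg4, Shank2, Shank3, Homer1, Begain, Cnksr2, Kalrn, Lrrc7, Magi2 and Sipa1l1, with Begain at -1.07, -0.90 and -1.16 (SAPAP3, MPTP and R6/2) and Magi2 least depleted at -0.20, -0.11 and -0.17. Among receptors they were the AMPA subunits Gria1, Gria2 and Gria3, the NMDA subunits Grin2a and Grin2b and the metabotropic receptor Grm5. Nlgn1 and the dynein light chain gene Dynll1 were also called lower in each. Camk2a, Dynll2, Gria4, Iqsec2 and Nlgn2 were called lower in the SAPAP3 and R6/2 experiments, Camk2b in the SAPAP3 and MPTP experiments and Dlg3 in the SAPAP3 experiment, and the differences between experiments were not tested for these genes.

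A few partners ran the other way. Homer3 was higher in IP in each experiment (1.81, 1.61 and 1.45), whereas its relative Homer1 was lower (-1.08, -1.07 and -0.82). The adhesion gene Nlgn3 was also higher in each (0.35, 0.43 and 0.29). Trim3, the ubiquitin ligase known to act on SAPAP1 at synapses, was called higher in the MPTP (0.42) and R6/2 (0.32) experiments, and Grin1 in the MPTP experiment (0.22). Shank1 (-1.14, 0.33 and -0.72) and Homer2 (-0.74, 0.57 and -0.38) were called lower in IP in the SAPAP3 and R6/2 experiments and higher in the MPTP experiment. Some of these calls depended on the scale: on log2(FPKM + 1) Nlgn3 no longer passed in the SAPAP3 (0.12, limma adjusted p = 0.0579) and R6/2 (0.052, adjusted p = 0.210) experiments, and in the MPTP experiment Shank1 was 0.066 (adjusted p = 0.528) and Grin1 changed sign to -0.011 (adjusted p = 0.857).

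The MPTP experiment compared mice given this toxin with vehicle mice, and no member was called in either fraction. In IP, Dlgap3 stood at 160.1, 208, 219.9 and 178 CPM in MPTP mice, against 185, 186, 191 and 202 CPM in vehicle mice. The MPTP values lay on both sides of the vehicle values, and the log2 change was 0.0039 ± 0.092 (interval -0.20 to 0.21; edgeR adjusted p = 0.992). In input, Dlgap3 stood at 459.9, 498, 458 and 456 CPM in MPTP mice, against 482, 455, 531 and 562 CPM in vehicle mice, a change of -0.12 ± 0.062 (interval -0.25 to 0.019; edgeR adjusted p = 0.645).

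For the other members the log2 changes in IP were -0.15 ± 0.079 for Dlgap1, 0.17 ± 0.13 for Dlgap2 and 0.098 ± 0.11 for Dlgap4, and in input they were -0.07 ± 0.060, -0.11 ± 0.070 and -0.09 ± 0.067. Their edgeR adjusted p-values were 0.528 to 0.792 in IP and 0.698 to 0.776 in input, and the groups overlapped for each gene in both fractions. By edgeR 0% of all genes were called in IP (1692 at an unadjusted p under 0.05; DESeq2 called 302) and 0% in input (1289 at an unadjusted p under 0.05; DESeq2 called 65). The difference between the IP and the input effect passed for no gene (0%; 1266 at an unadjusted p under 0.05; DESeq2 called 50), and among the members Dlgap2 had the largest, 0.27 ± 0.16.

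None of the 35 partners was called in IP or in input by edgeR or DESeq2. In edgeR 0 had an unadjusted p under 0.05 in IP and 14 did in input, where 27 of 35 lay below 0 with a median of -0.08. The median in IP was 0.044, with 24 of 35 above 0.

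In the R6/2 experiment the log2 change in IP with hM4Di was below 0 for all 4 members, and 1 of the 4, Dlgap1, was called. Dlgap1 stood at 166, 163, 162 and 159 CPM with hM4Di, against 187, 180.2, 193 and 179 CPM with control cargo. The groups did not overlap, and Dlgap1 fell by 0.18 ± 0.037 on the log2 scale (interval -0.27 to -0.10; edgeR adjusted p = 0.0157). This contrast called 14.7% of the 15159 genes tested, and the 1 member of 4 is to be read against that share.

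Dlgap3 in IP stood at 107, 103, 97.1 and 93.4 CPM with hM4Di, against 125, 109, 119.9 and 181 CPM with control cargo. The groups did not overlap, but control replicate 4 lay far above the other control libraries. The log2 change of -0.42 ± 0.14 (interval -0.74 to -0.10) had an edgeR adjusted p of 0.0784, and without that replicate it was -0.25 with an adjusted p of 0.0553. Leaving out control replicate 2 gave -0.51 with an adjusted p of 0.0469.

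Dlgap2 in IP stood at 34.9, 38.1, 33.5 and 36.6 CPM with hM4Di, against 49.7, 38.7, 39.3 and 56.9 CPM with control cargo. The groups were barely apart in CPM and overlapped in FPKM, where hM4Di replicate 2 (8.586) lay above control replicate 2 (8.580). The log2 change was -0.37 ± 0.12 (edgeR adjusted p = 0.0709), and -0.26 (adjusted p = 0.120) without control replicate 4. Without control replicate 2 it was -0.45 and passed (adjusted p = 0.0413). Dlgap4 stood at 70.4, 69.5, 73.9 and 68.5 CPM with hM4Di, against 85.2, 71.2, 72.8 and 111 CPM with control cargo. The groups overlapped, with a change of -0.27 ± 0.13 (edgeR adjusted p = 0.187) that was -0.12 without control replicate 4.

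Input libraries of the same mice showed no called change in the family. Dlgap3 input stood at 335, 341, 290.0 and 328 CPM with hM4Di, against 294, 299.7, 282 and 371 CPM with control cargo. Its log2 change was 0.053 ± 0.084 (edgeR adjusted p = 0.938). The changes were -0.11 ± 0.038 for Dlgap1 (edgeR adjusted p = 0.551), -0.11 ± 0.11 for Dlgap2 and 0.018 ± 0.087 for Dlgap4. In input 0.0198% of all genes were called by edgeR, 3 of 15168.

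The IP effect minus the input effect was -0.48 ± 0.18 for Dlgap3 (interval -0.86 to -0.10; edgeR adjusted p = 0.161), -0.30 ± 0.17 for Dlgap4 (adjusted p = 0.389), -0.27 ± 0.18 for Dlgap2 (adjusted p = 0.492) and -0.09 ± 0.051 for Dlgap1 (adjusted p = 0.409). Of all genes, 3.1% were called in this fit without an animal block. IP and input libraries of 1 mouse deviated together in this experiment, and with the animal as a block Dlgap3 (-0.46, edgeR adjusted p = 0.000709), Dlgap4 (-0.29, adjusted p = 0.00241) and Dlgap2 (-0.27, adjusted p = 0.0109) passed. The fit with the block called 2761 of all 15880 genes tested, and these members are to be read against that share. In the fit without the block, leaving out control replicate 4 gave -0.39 for Dlgap3, which passed (edgeR adjusted p = 0.0464, against 0.161 with all replicates).

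**Figure D5:**
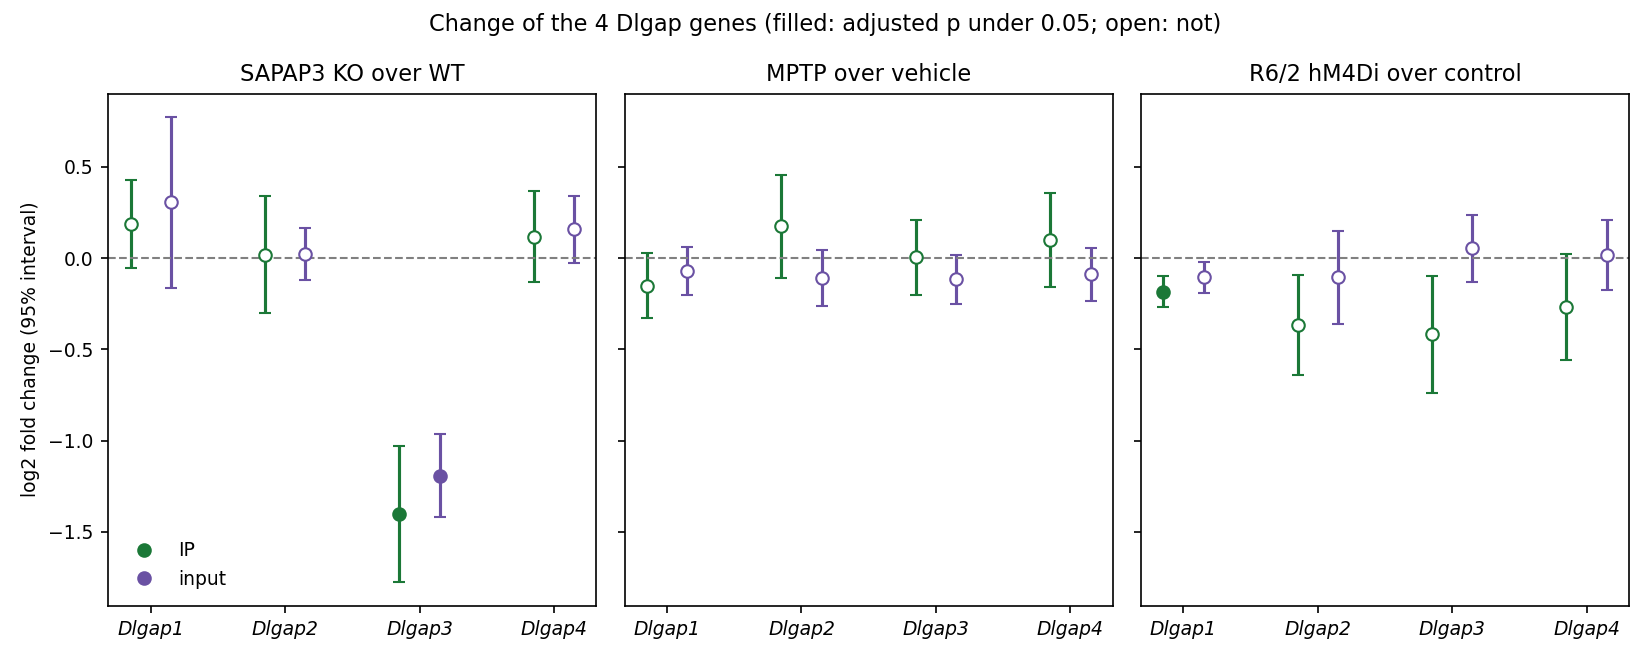
Log2 change of each SAPAP family gene in the 3 experiments, perturbed over control, in IP and in input (points; bars, 95% interval; filled points passed edgeR's test). The filled points are Dlgap3 in both fractions of the SAPAP3 knockout (-1.40 and -1.19) and Dlgap1 in the IP of hM4Di mice (-0.18).

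Partners of the family fell in the same IP libraries. Of 35 listed genes, 20 were called lower with hM4Di and 1 higher, Homer3 (0.44 ± 0.058), and the median log2 change was -0.27, against 0.0052 over all genes. Of all genes tested, 14.7% were called in either direction. Without control replicate 4 the partner counts were 16 lower and 1 higher. All 3 NMDA receptor subunits fell, Grin1 (-0.39), Grin2a (-0.36) and Grin2b (-0.43), as did the metabotropic receptor Grm5 (-0.42).

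Among the MAGUK genes, which encode the proteins that SAPAP binds at the membrane side, 3 of 4 fell: Dlg2 (-0.31), Dlg3 (-0.35) and Dlg4 (-0.30). Of the Shank genes 1 of 3 fell, Shank2 (-0.32). Of the AMPA receptor subunits 2 of 4 fell, Gria1 (-0.27) and Gria2 (-0.38), and of the neuroligins 2 of 3, Nlgn1 (-0.18) and Nlgn3 (-0.17). Other scaffolds and regulators that fell included Cnksr2 (-0.53), Kalrn (-0.46), Lrrc7 (-0.38), Sipa1l1 (-0.37) and Magi2 (-0.21), and the kinase gene Camk2a fell by 0.45. In input 0 of 35 were called by edgeR or DESeq2, with 2 at an unadjusted p under 0.05 in edgeR.

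The difference between the IP and the input effect was called for 8 of 35 partners, all lower in IP: Lrrc7, Nlgn3, Grm5, Grin2b, Dlg3, Gria2, Dlg2 and Gria1. Of all genes tested for this difference, 3.1% were called. Markers of several cell types, astrocytes included, moved in the same libraries. Their counts in IP are to be read against the 14.7% of all genes tested that were called there. In IP, 10 of 13 medium spiny neuron markers were called lower with hM4Di (median -0.51; 9 of 13 without control replicate 4), with summed levels of 2040 to 2138 CPM with hM4Di and 2423 to 3661 CPM with control cargo. All 7 oligodendrocyte markers were called higher (median 0.81), with summed levels of 4730 to 6908 CPM with hM4Di and 2671 to 3709.8 CPM with control cargo. Of 12 astrocyte markers 3 were called lower and 1 higher (median -0.11), and their summed levels did not overlap, at 18313 to 19571 CPM with hM4Di and 22390.3 to 24997 CPM with control cargo. Of 8 pan-neuronal markers 3 were called lower and all lay below 0 (median -0.23), with summed levels of 3074 to 3411 CPM with hM4Di and 3629.5 to 4031 CPM with control cargo. Calls lower also covered 1 of 4 oligodendrocyte precursor markers (summed levels 56.99 to 72.3 CPM with hM4Di and 70.3 to 85.8 CPM with control cargo) and 1 of 6 endothelial and mural markers (50.5 to 52.6 CPM with hM4Di and 58.6 to 61.8 CPM with control cargo). No marker of striatal interneurons, cortical excitatory neurons or microglia was called. None of these markers was at 0 in any library, and their part in the results for the family and its partners was not tested.

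Last, the genes whose levels varied most like each member were listed, over the deviations of the 24 input libraries from their group means and 12324 genes. Likeness is Pearson's r, given as a description without a test, since all genes of a library share its depth and its mix of cells. Dlgap1 was most like Gabbr2 (0.987), a subunit of the GABA-B receptor, Vsnl1 (0.974), a neuronal calcium sensor, and Nav3 (0.969). Without the WT inputs 1 and 2, which lay farthest from the median, these were 0.937, 0.869 and 0.849. Group means were not recomputed for the values given without libraries, here and below. The left-out libraries therefore still act on those values, which do not show the likeness free of them.

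Dlgap2 was most like Samd4 (0.886), Zfp142 (0.879) and Sh3pxd2a (0.877). Without R6/2 control inputs 4 and 2 these were 0.772, 0.837 and 0.758. Among the genes most like Dlgap3 were Agap2 (0.876) and Mtcl1 (0.874), at 0.854 and 0.837 without WT input 1 and R6/2 control input 4. Dlgap4 was most like Mamld1 (0.907), Snph (0.899), which anchors mitochondria in axons, and Zmiz1 (0.895). Without the same R6/2 control inputs 4 and 2 these were 0.899, 0.877 and 0.883. No member was among the 3 genes most like another member.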

How the data were processed

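RNA was sequenced from stranded, ribosomal RNA-depleted libraries on a HiSeq4000, per the labels' protocols, and the submitters' processing notes name STAR and HTSeq as tools and mm10 as the build, with no versions. The authors deposited raw read counts per gene symbol and FPKM values. The deposited FPKM were checked to be the count over a fixed gene length and the library's total count. Symbols were duplicated in 4 rows, none of them a member, and no column was left unmapped.

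Counts were tested in R 4.3.3 with edgeR 4.0.16: filterByExpr (minimum count 10), TMM scaling, the quasi-likelihood F test, Benjamini-Hochberg adjustment over all genes tested and a threshold of 0.05. Each perturbation was compared with its control among the 8 IP and the 8 input libraries. For IP against input, the fit used the 16 libraries of an experiment with the arm in the model, and the interaction was fitted on the same libraries. Errors of log2 changes are the SE implied by the F statistic. The code was tested on simulated data. The 4 members, the 35 partners and the marker lists were chosen with earlier results of these data known. All members were named, with every partner that passed a test or led a knockout comparison by p, and the 3 genes most like each member, except a few genes that are not reported here by name. The cross-experiment fit, that fit without WT replicate 1, and the other scalings of the partners' IP against input values were chosen after the data were seen.

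IP and input residuals of 1 mouse, paired by replicate number, correlated at 0.387 to 0.636 in the R6/2 experiment, 0.249 to 0.517 in the SAPAP3 experiment and 0.0634 to 0.378 in the MPTP experiment, where the titles of MPTP replicate 2 name different animals for its fractions. Alternatives were DESeq2 1.42.0, limma 3.58.1 (voom, or log2 FPKM plus 1 or 0.1), other scalings, filters and blocks, and each replicate left out.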

Additional observations from a re-analysis of the deposited data

Results flagged for a closer look

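Single libraries stood far from the other 3 of their group in 4 of 48 gene and group combinations, where chance gives about 1 in 20. Dlgap1 in WT input replicate 1 was low at 171 CPM and Dlgap3 in the same library was high at 498 CPM. Dlgap3 in MPTP input replicate 2 was high at 498 CPM, and Dlgap2 in R6/2 control input replicate 4 was high at 108 CPM. The IP minus input difference itself differed between experiments in 6 member tests (log2, edgeR on all 48 libraries; 4 members, 3 pairs of experiments). Such calls were common, covering 34.3% (SAPAP3 minus MPTP), 25.8% (SAPAP3 minus R6/2) and 32.2% (R6/2 minus MPTP) of all genes tested. SAPAP3 minus MPTP was -1.08 for Dlgap1, -0.43 for Dlgap2 and -0.48 for Dlgap4. SAPAP3 minus R6/2 was -0.85 for Dlgap1. R6/2 minus MPTP was -0.54 for Dlgap2 and -0.36 for Dlgap4.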

How the results depend on the processing

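Over 60 results, 916 alternative values were computed, of which 852 kept their direction and their side of the threshold, and 42 results kept both throughout. A sign changed in 39 values, none past the threshold before or after, the largest of size 0.14. All values are log2 unless given as gene counts, and the causes of changes were not tested. For Dlgap2, knockout IP gave -0.0098 (voom), -0.025 and -0.029 (log2 FPKM plus 1 and plus 0.1), -0.0076 (replicate block), -0.13 (mice with Xist reads left out) and -0.061 (Xist as covariate), and knockout input gave -0.0073 (upper-quartile scaling), -0.011 and -0.011 (FPKM). Its SAPAP3 interaction gave -0.025 (voom), -0.014 and -0.017 (FPKM), -0.0070 (no filter), -0.023 (animal as replicate block), -0.14 (Xist mice out) and -0.020 (Xist covariate). Dlgap3 in the knockout without the Xist mice gave -1.55 (IP, adjusted p 0.152) and -1.27 (input, adjusted p 0.138), in which neither passed with 3 replicates a group. Dlgap3 in MPTP IP gave -0.0069 (voom), -0.00070 (no filter), -0.0065 (replicate block) and -0.012 (all 16 libraries). In hM4Di IP, Dlgap2 and Dlgap3 passed with DESeq2 (-0.38 and -0.43) and with all 16 libraries (-0.38 and -0.43). IP against input no longer passed for Dlgap1 in WT mice alone (-0.43) and for Dlgap2 in MPTP mice alone (-0.13). With the animal as replicate block, the R6/2 interaction passed for Dlgap2 (-0.27), Dlgap3 (-0.46) and Dlgap4 (-0.29). That fit called 2761 of 15880 genes. Replicate numbers across arms correlated at -0.388 to 0.433. The labels name no source that the arms share by replicate number, and a shared source was not tested. The block changed no other member's call.

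With 1 replicate left out, Dlgap3 ranged from -1.57 to -1.29 in knockout IP, -1.25 to -1.10 in knockout input, -0.069 to 0.081 in MPTP IP, -0.51 to -0.25 in hM4Di IP and -0.55 to -0.39 in the R6/2 interaction. Dlgap2 ranged from -0.11 to 0.14 in knockout IP, -0.040 to 0.057 in knockout input, -0.10 to 0.099 in the SAPAP3 interaction, -0.45 to -0.26 in hM4Di IP and -0.17 to 0.041 in hM4Di input. The SAPAP3 interaction ranged from -0.17 to 0.019 for Dlgap1 and -0.10 to 0.016 for Dlgap4, and hM4Di input from -0.047 to 0.13 for Dlgap4. Dlgap1, R6/2 minus MPTP, was -0.22 without WT replicate 1. Genes called numbered 4 in knockout IP (8 with DESeq2, 2 with the replicate block, 0 without Xist mice, 0 to 3 with 1 replicate out), 1 in knockout input (8 with DESeq2, 0 without Xist mice, 3 with all 16 libraries, 0 to 1), 0 in MPTP IP (302 with DESeq2, 289 with all 16, 0 to 65), 0 in MPTP input (65 with DESeq2, 1 with no filter, 1 with the block, 0 to 2), 2227 in hM4Di IP (3474 with DESeq2, 3636 with all 16, 892 to 2130) and 3 in hM4Di input (53 with DESeq2, 5 with no filter, 6 with the block, 3 to 4). Interactions called 0 for the knockout (1 with DESeq2), 0 for MPTP (50 with DESeq2) and 492 for hM4Di (1159 with DESeq2, 2761 with the animal block, 91 to 433).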
